A study of Drosophila melanogaster with 12 samples.

Results

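The difference between the effects of age in 2 groups of somatic niche cells of the Drosophila ovary was measured gene by gene, as the change with age in terminal filament cells and cap cells (TFCs-CpCs) minus the change with age in escort cells (ECs). It was taken from 8 of the 12 RNA-seq libraries of the series, with 2 libraries of each cell group at each age. The 4w TFCs-CpCs and the 1w TFCs-CpCs were the cells with a strong GFP signal of bab1>tau::GFP ovaries, in which bab1-Gal4 drives UASp-tau::mGFP6. This driver is also weakly active in ECs. The 4w ECs and the 1w ECs were the GFP-positive cells of females with the LexAop-mCD8::GFP reporter and the driver ptc-LexA. The females were 4 weeks (4w) or 1 week (1w) old. Those of the ECs are given as y w LexAop-mCD8::GFP over w with ptc-LexA over +. The bab1-Gal4 and tau::GFP stocks of the TFCs-CpCs carry w, without y. No further allele or treatment is given for the females. Live cells (negative for propidium iodide) were sorted from dissociated, pooled ovaries, and their RNA was amplified by PCR before sequencing. Both ages of a cell group share the driver, the reporter and the sorting gate. Whether the gate took the same cells at both ages was not tested. Between TFCs-CpCs and ECs the alleles, the driver, the reporter and the gate cannot be told apart from the cell group. Of 11452 genes tested, 283 (2.47%) had an effect of age that differed between the cell groups, and 50 of these had effects of at least 2-fold in opposite directions.

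TFCs and CpCs form the anterior end of each germarium and hold the germline stem cells, which they feed with BMP signals, while ECs line the germarium behind them and wrap the differentiating cysts. Hedgehog from TFCs-CpCs acts on ECs, and EGFR, Wnt and ecdysone signalling in ECs limits how far the stem cell signals reach. Both cell groups need adhesion molecules, junction proteins and matrix enzymes to keep this arrangement in the adult.

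The reads counted on genes summed to between 12078227 and 52487930 per library, with the ECs at the lower end (12078227 to 16888122). The genes with counts numbered 9953 to 11520 in the TFCs-CpCs libraries and 11544 to 12685 in the ECs libraries. The paper sorted far fewer TFCs-CpCs than ECs per experiment. The median standard error of the effect of age was 0.68 in TFCs-CpCs and 0.71 in ECs. Low genes and values of 0 are thus uncertain in both cell groups. The correlation of log values between the replicates of a group was 0.932 to 0.965. The label was checked against markers of both cell groups. The TFCs-CpCs marker engrailed (en) had 71.4 and 298 cRPKM in 4w TFCs-CpCs, against 13.9 and 20.3 cRPKM in 1w TFCs-CpCs. It had 0.48 and 3.19 cRPKM in 4w ECs, against 0.79 and 0.83 cRPKM in 1w ECs, so that every TFCs-CpCs library was above every ECs library. The ligand hedgehog (hh), also a defining TFCs-CpCs gene, was in contrast higher in the 1w ECs than in the 1w TFCs-CpCs. The gene bab1 overlapped between 1w TFCs-CpCs (7.69 and 9.19 cRPKM) and 4w ECs (9.52 and 7.32 cRPKM). The 8 TFCs-CpCs markers summed to 649 and 1722 cRPKM in 4w TFCs-CpCs, against 346 and 415 cRPKM in 1w TFCs-CpCs. The sums were 177 and 175 cRPKM in 4w ECs, against 209 and 183 cRPKM in 1w ECs. Of the ECs markers ptc, Wnt2, fax and Con were higher in ECs while Wnt6, zfh1 and, at 4w, Wnt4 were not. The 7 ECs markers summed to 524 and 2075 cRPKM in 4w TFCs-CpCs, against 378 and 376 cRPKM in 1w TFCs-CpCs. Their sum was 1276 and 1087 cRPKM in 4w ECs, against 1420 and 907 cRPKM in 1w ECs. By this sum replicate 2 of the 4w TFCs-CpCs was above every ECs library, but Wnt4 (1390 cRPKM) and Wnt6 (474 cRPKM) made up most of it. In the same library ptc (9.48 cRPKM), Wnt2 (38.6 cRPKM), fax (41.0 cRPKM) and Con (0.05 cRPKM) were below every ECs library. Genes of other cell types were present. The 26 muscle markers summed to 2336 and 2672 cRPKM in 4w TFCs-CpCs, against 65102 and 62129 cRPKM in 1w TFCs-CpCs, and 438 and 389 cRPKM in 4w ECs, against 1720.2 and 742 cRPKM in 1w ECs, with at most 2 of the genes at 0 in a library. The muscle sum was thus lower at 4w than at 1w in both cell groups. The 21 genes of late follicle cells, which make the eggshell, summed to 158526 and 38608 cRPKM in 4w TFCs-CpCs, against 14848 and 4542 cRPKM in 1w TFCs-CpCs, and 15443 and 12228 cRPKM in 4w ECs, against 19743 and 16303 cRPKM in 1w ECs. The sums of 10 germline genes were 91.0 to 395 cRPKM and those of 7 hemocyte genes 75.5 to 379 cRPKM over the 8 libraries. The late follicle sum stood apart in replicate 1 of the 4w TFCs-CpCs, in which the 10 highest genes took 15.55% of the reads, against 9.967% to 11.795% in the other 7 libraries. In such bulk samples, fewer cells of a type and less RNA per cell cannot be told apart, and the part of these genes' cells in the results that follow was not tested.

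**Figure D1:**
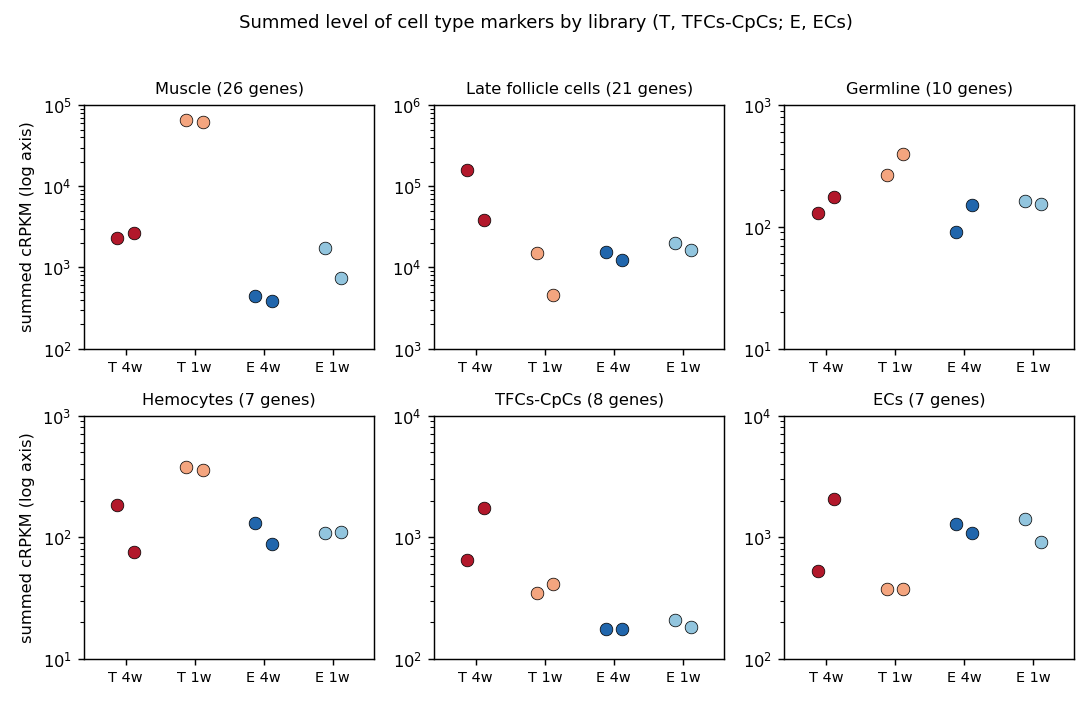
Summed level of marker genes in each of the 8 libraries (cRPKM, log axis), by cell type list, with 1 point per library and the 4w group left of the 1w group in TFCs-CpCs and in ECs. The muscle sum was 2336 and 2672 cRPKM in 4w TFCs-CpCs, against 65102 and 62129 cRPKM in 1w TFCs-CpCs, and the late follicle sum reached 158526 cRPKM in 1 of the 4w TFCs-CpCs libraries.

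A gene was called when its log2 difference between the 2 effects was at least 1 in size with an adjusted p under 0.1 (edgeR quasi-likelihood test over the 8 libraries, Benjamini-Hochberg adjustment over all genes tested). The 283 called genes were 2.47% of the genes tested, while an unadjusted p under 0.05 was reached by 1579 genes. The difference was more positive in TFCs-CpCs for 110 genes (0.961% of those tested) and more negative for 173 (1.51%). The effect of age by itself was called for 924 genes (8.07%) in TFCs-CpCs, 386 higher and 538 lower at 4w, and for 21 genes (0.183%) in ECs, all lower at 4w. The paper, with DESeq, reported more genes changed in ECs, some of them higher at 4w. The balance of directions in TFCs-CpCs turned with other fits, with 849 higher and 803 lower by DESeq2, 851 higher and 820 lower with 12 libraries and 494 higher and 452 lower with limma on log2(cRPKM + 0.1). For the difference itself DESeq2 gave 489 more positive and 419 more negative genes. By edgeR 148 genes were at least 2-fold higher in 4w ECs with an unadjusted p under 0.05, and DESeq2 called 17 genes higher there. Accordingly, 271 of the 283 genes also had a called effect in TFCs-CpCs, and 2 had one in ECs. In 268 of the 283 the gene was measured in both cell groups, that is, with a mean of at least 1 cRPKM (corrected RPKM, reads divided by mappable transcript length and library depth) at one or both ages in each. By the size of the 2 fold changes, 50 of the 268 genes had opposite effects of at least 2-fold, 189 had an effect of at least 2-fold on the TFCs-CpCs side and a smaller one in ECs, 4 had it on the ECs side, and 25 had effects of at least 2-fold in the same direction. Each class is a set of fitted values and not a test of its own. The number of calls rested on single libraries. It was 489 without replicate 1 of the 4w TFCs-CpCs, 144 without replicate 1 of the 1w TFCs-CpCs, 119 or 125 without a library of the 4w ECs, and 120 or 69 without one of the 1w ECs, and 45 of the 283 genes were called in all of the 8 such fits. In particular, of the 189 genes on the TFCs-CpCs side, only 30 had a 95% interval of the ECs effect that lay within a 2-fold change in either direction, so that for the other 159 a change in ECs of that size was not shown to be absent. Across the 8193 genes tested and measured in both cell groups the 2 effects had a correlation of -0.015, which describes these genes and shares its 8 libraries. The median difference of all genes tested was 0.13 on the log2 scale. It was 0.21 with median-of-ratios scaling, 0.39 and 0.29 with limma on log2(cRPKM + 0.1) and log2(cRPKM + 1), 0.01 at a mean of at least 5 cRPKM and -0.11 without replicate 1 of the 4w TFCs-CpCs.

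Among the 50 opposite genes, 32 had higher values with age in TFCs-CpCs and lower ones in ECs. In 23 of the 32 the 4w and 1w libraries did not overlap in either cell group, and over all genes measured in both cell groups this arrangement held for 6.37%. The 32 were picked by their fitted changes in the same libraries, so that this share is a description and no test. The effect of age was called in TFCs-CpCs for 43 of the 50 genes and in ECs for none (by edgeR, with 22 at an unadjusted p under 0.05 and 7 called by DESeq2), so that the ECs values are given without a call of their own. There were 26 opposite genes without replicate 1 of the 1w TFCs-CpCs, 26 without replicate 1 of the 4w ECs, and 25 or 20 without a library of the 1w ECs. Over the 50 genes the median size of the log2 fold change was 4.79 in TFCs-CpCs and 1.78 in ECs. The metalloproteinase Mmp1, which cleaves extracellular matrix (FBgn0035049, chromosome 2R, 24671294 to 24688184 in BDGP6), is one of the steadiest examples. Mmp1 had 20.7 and 30.2 cRPKM in 4w TFCs-CpCs, against 5.01 and 3.65 cRPKM in 1w TFCs-CpCs. Its level was 30.2 and 51.1 cRPKM in 4w ECs, against 105 and 85.5 cRPKM in 1w ECs. Both 4w TFCs-CpCs libraries were above both 1w libraries, both 4w ECs libraries were below both 1w libraries, and the levels of the cell groups were nearer to each other at 4w than at 1w. Its log2 fold change was 2.27 in TFCs-CpCs and -1.17 in ECs, a difference of 3.44 (standard error 0.56, adjusted p = 0.0191), and it was called in 8 of the 8 fits that left out 1 library each. The paper lists Mmp1 among the genes whose expression changed with age in ECs. Drosocin (Dro, FBgn0010388, chromosome 2R, 14745961 to 14746714), an antimicrobial peptide of the Imd response, had 317 and 112 cRPKM in 4w TFCs-CpCs, against 0.59 and 0.12 cRPKM in 1w TFCs-CpCs. It had 11.1 and 43.1 cRPKM in 4w ECs, against 121 and 68.4 cRPKM in 1w ECs. It was thus close to 0 in the 1w TFCs-CpCs alone, while the ages did not overlap in either cell group, and the difference was 10.69 (standard error 1.38, adjusted p = 0.00748), called in 8 of the 8. Transferrin 2 (Tsf2), an iron-binding protein that septate junctions need for their assembly, had 30.7 and 30.1 cRPKM in 4w TFCs-CpCs, against 4.44 and 4.37 cRPKM in 1w TFCs-CpCs. Its level was 4.11 and 2.78 cRPKM in 4w ECs, against 8.44 and 12.1 cRPKM in 1w ECs. The replicates were within 2-fold of each other in all 4 groups, and the difference of 4.05 (standard error 0.68, adjusted p = 0.0212) was called in 8 of the 8.

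A pair of genes with neighbouring numbers showed the same arrangement. CG42822 had 24 and 11 cRPKM in 4w TFCs-CpCs, against 0 and 0 cRPKM in 1w TFCs-CpCs. It had 7.58 and 5.37 cRPKM in 4w ECs, against 27.7 and 42.6 cRPKM in 1w ECs. With no read in either 1w TFCs-CpCs library, its rise in TFCs-CpCs was at least 124.7-fold against the floor of 3 counts per library, and the fitted difference was 13.54 (standard error 2.05, adjusted p = 0.018). CG42821 had 49.6 and 29.5 cRPKM in 4w TFCs-CpCs, against 0.22 and 0 cRPKM in 1w TFCs-CpCs. Its level was 12.2 and 58.9 cRPKM in 4w ECs, against 214 and 193 cRPKM in 1w ECs, with a difference of 10.62 (standard error 1.49, adjusted p = 0.00983). CG31121 was a further gene called in all of the 8 leave-one-out fits, with 13.4 and 21.1 cRPKM in 4w TFCs-CpCs, against 0.08 and 0.39 cRPKM in 1w TFCs-CpCs. It had 2.39 and 1.33 cRPKM in 4w ECs, against 6.32 and 3.71 cRPKM in 1w ECs. These 3 genes, Mmp1, Dro and Tsf2 were the 6 genes of this arrangement that kept the call in every such fit.

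Other genes of this arrangement had larger estimates that rested on fewer libraries. The ecdysone-making P450 shade (shd), which turns ecdysone into its active form 20-hydroxyecdysone, had 4.88 and 21.5 cRPKM in 4w TFCs-CpCs, against 0.03 and 0 cRPKM in 1w TFCs-CpCs. Its level was 0.02 and 2.27 cRPKM in 4w ECs, against 2.56 and 5.36 cRPKM in 1w ECs. Its rise in TFCs-CpCs was at least 462-fold, the ECs libraries of the 2 ages did not overlap but were low, and the call was kept in 3 of the 8 leave-one-out fits. Glutathione S-transferase D2 (GstD2), of a cluster of similar detoxifying enzymes whose reads may be shared, had 439 and 469 cRPKM in 4w TFCs-CpCs, against 24.6 and 7.89 cRPKM in 1w TFCs-CpCs. It had 18.3 and 32.9 cRPKM in 4w ECs, against 15.7 and 379 cRPKM in 1w ECs. The ECs side here was 1 library: without replicate 2 of the 1w ECs the difference was 3.65 (adjusted p = 0.155), against 7.49 with it. The bHLH repressor Hesr, related to the Notch-responsive E(spl) genes, had 50.8 and 25.9 cRPKM in 4w TFCs-CpCs, against 1.23 and 4.82 cRPKM in 1w TFCs-CpCs. Its level was 0.54 and 2.31 cRPKM in 4w ECs, against 44.1 and 21.6 cRPKM in 1w ECs, with a difference of 7.88 (standard error 1.57, adjusted p = 0.0404) in which the ages did not overlap in either cell group, while the effect in TFCs-CpCs alone was not called. The Snail-family factor Kah had 31.3 and 75.4 cRPKM in 4w TFCs-CpCs, against 19.8 and 21.4 cRPKM in 1w TFCs-CpCs. It had 0.04 and 0.36 cRPKM in 4w ECs, against 4.15 and 1.92 cRPKM in 1w ECs, so that most of its difference of 4.88 (standard error 0.99, adjusted p = 0.0438) lay on the ECs side. The receptor mthl9, of the methuselah family of G protein-coupled receptors, had 22.2 and 48.5 cRPKM in 4w TFCs-CpCs, against 3.1 and 3.54 cRPKM in 1w TFCs-CpCs. Its level was 6.47 and 3.52 cRPKM in 4w ECs, against 13.4 and 8.84 cRPKM in 1w ECs, with a difference of 4.20 (standard error 0.81, adjusted p = 0.0344).

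Of the 4 called genes of late follicle cells, Cp15, Vm32E and Vm26Ac had opposite effects of age, and all are part of the late follicle sums given above. The chorion gene Cp15 had 73479 and 60.4 cRPKM in 4w TFCs-CpCs, against 62.4 and 73 cRPKM in 1w TFCs-CpCs. It had 566 and 217 cRPKM in 4w ECs, against 1829 and 1384 cRPKM in 1w ECs. Only replicate 1 of the 4w TFCs-CpCs was high, and without it the difference fell to 1.51 (adjusted p = 0.293), against 10.82 with it. The vitelline membrane gene Vm32E had 7487 and 1722 cRPKM in 4w TFCs-CpCs, against 6.18 and 228 cRPKM in 1w TFCs-CpCs. Its level was 14.1 and 131 cRPKM in 4w ECs, against 501 and 321 cRPKM in 1w ECs, with a difference of 7.56 (standard error 1.91, adjusted p = 0.0924) that was 6.09 (adjusted p = 0.158) without that library. CG6508 and CG15721 likewise had their 4w level in that library: CG6508 had 64.4 and 0 cRPKM in 4w TFCs-CpCs, against 0.02 and 0 cRPKM in 1w TFCs-CpCs, with a difference of 15.36, against 2.04 (adjusted p = 0.984) without it. CG15721, of whose exon bases 24.8% are shared with another gene, had 373 and 2.8 cRPKM in 4w TFCs-CpCs, against 0.1 and 0.02 cRPKM in 1w TFCs-CpCs, with a difference of 13.34, against 7.21 (adjusted p = 0.113) without it.

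The remaining 18 opposite genes were lower with age in TFCs-CpCs and higher in ECs. In 14 of the 18 the ages did not overlap in either cell group, an arrangement that held for 2.95% of all genes measured in both cell groups. These 18 were likewise picked by their changes in the same libraries, so that the share is a description. The G protein subunit Gbeta5, which pairs with regulators of G protein signalling (FBgn0030011, chromosome X, 8150731 to 8152275), had 11.3 and 20.2 cRPKM in 4w TFCs-CpCs, against 109 and 84.8 cRPKM in 1w TFCs-CpCs. It had 12.8 and 11.6 cRPKM in 4w ECs, against 4.21 and 0.49 cRPKM in 1w ECs. At 1w it was far higher in TFCs-CpCs and at 4w the 2 cell groups had similar levels. Its log2 fold change was -2.91 in TFCs-CpCs and 2.53 in ECs, a difference of -5.44 (standard error 1.01, adjusted p = 0.0311), called in 8 of the 8 leave-one-out fits. CG3630 had 32.4 and 21.8 cRPKM in 4w TFCs-CpCs, against 556 and 639 cRPKM in 1w TFCs-CpCs. Its level was 6.33 and 19.7 cRPKM in 4w ECs, against 9.02 and 3.26 cRPKM in 1w ECs. It fell in TFCs-CpCs, but its ECs libraries overlapped between the ages, and the difference was -5.91 (standard error 0.81, adjusted p = 0.00983). CG14285 had 2.54 and 2.55 cRPKM in 4w TFCs-CpCs, against 88.9 and 77.2 cRPKM in 1w TFCs-CpCs. It had 6.4 and 4.35 cRPKM in 4w ECs, against 2.03 and 0.14 cRPKM in 1w ECs, with no overlap between the ages in either cell group and a difference of -7.77 (standard error 1.20, adjusted p = 0.0159). CG3630, CG14285 and Gbeta5 were the 3 genes of this arrangement called in all of the 8 leave-one-out fits.

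Levels were not always higher in TFCs-CpCs for these genes. CG31676 had 3.99 and 9.38 cRPKM in 4w TFCs-CpCs, against 28.5 and 37.1 cRPKM in 1w TFCs-CpCs. Its level was 1127 and 699 cRPKM in 4w ECs, against 444 and 442 cRPKM in 1w ECs, so that it was an ECs gene at both ages, the more so at 4w, with a difference of -3.68 (standard error 0.61, adjusted p = 0.0202). CG10863 had 62 and 72.4 cRPKM in 4w TFCs-CpCs, against 129 and 118 cRPKM in 1w TFCs-CpCs. It had 40.6 and 93.4 cRPKM in 4w ECs, against 16.6 and 13.1 cRPKM in 1w ECs, and its difference of -3.39 (standard error 0.62, adjusted p = 0.028) came more from the ECs, where the effect alone had no call. Of its exon bases, 17.4% are shared with another gene. Hormone-sensitive lipase (Hsl), which releases fatty acids from lipid droplets, had 15.6 and 7.32 cRPKM in 4w TFCs-CpCs, against 38.8 and 36.9 cRPKM in 1w TFCs-CpCs. Its level was 22 and 13.3 cRPKM in 4w ECs, against 4.91 and 8.82 cRPKM in 1w ECs, with a difference of -3.37 (standard error 0.74, adjusted p = 0.0573) and no overlap in either cell group. The endosomal tethering factor Vps8 had 7.1 and 4.95 cRPKM in 4w TFCs-CpCs, against 23.9 and 17.8 cRPKM in 1w TFCs-CpCs. It had 4.01 and 9.79 cRPKM in 4w ECs, against 3.65 and 1.25 cRPKM in 1w ECs, with a difference of -3.66 that was called without the block (adjusted p = 0.0671) and not with the replicate pairs of the ECs as a block (adjusted p = 0.102). CG8888 fell in TFCs-CpCs, with 4.74 and 1.15 cRPKM in 4w TFCs-CpCs, against 176 and 227 cRPKM in 1w TFCs-CpCs. Its ECs values were low and overlapped, 0.04 and 2.14 cRPKM in 4w ECs, against 0.5 and 0.2 cRPKM in 1w ECs, and without replicate 2 of the 4w ECs the difference was -3.27 (adjusted p = 0.667), against -8.06 with it. CG14196 had 1.29 and 0.22 cRPKM in 4w TFCs-CpCs, against 18.8 and 18.5 cRPKM in 1w TFCs-CpCs. Its level was 1.72 and 2.36 cRPKM in 4w ECs, against 1.2 and 0.61 cRPKM in 1w ECs, with a difference of -6.12 (standard error 1.24, adjusted p = 0.0438).

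**Figure D2:**
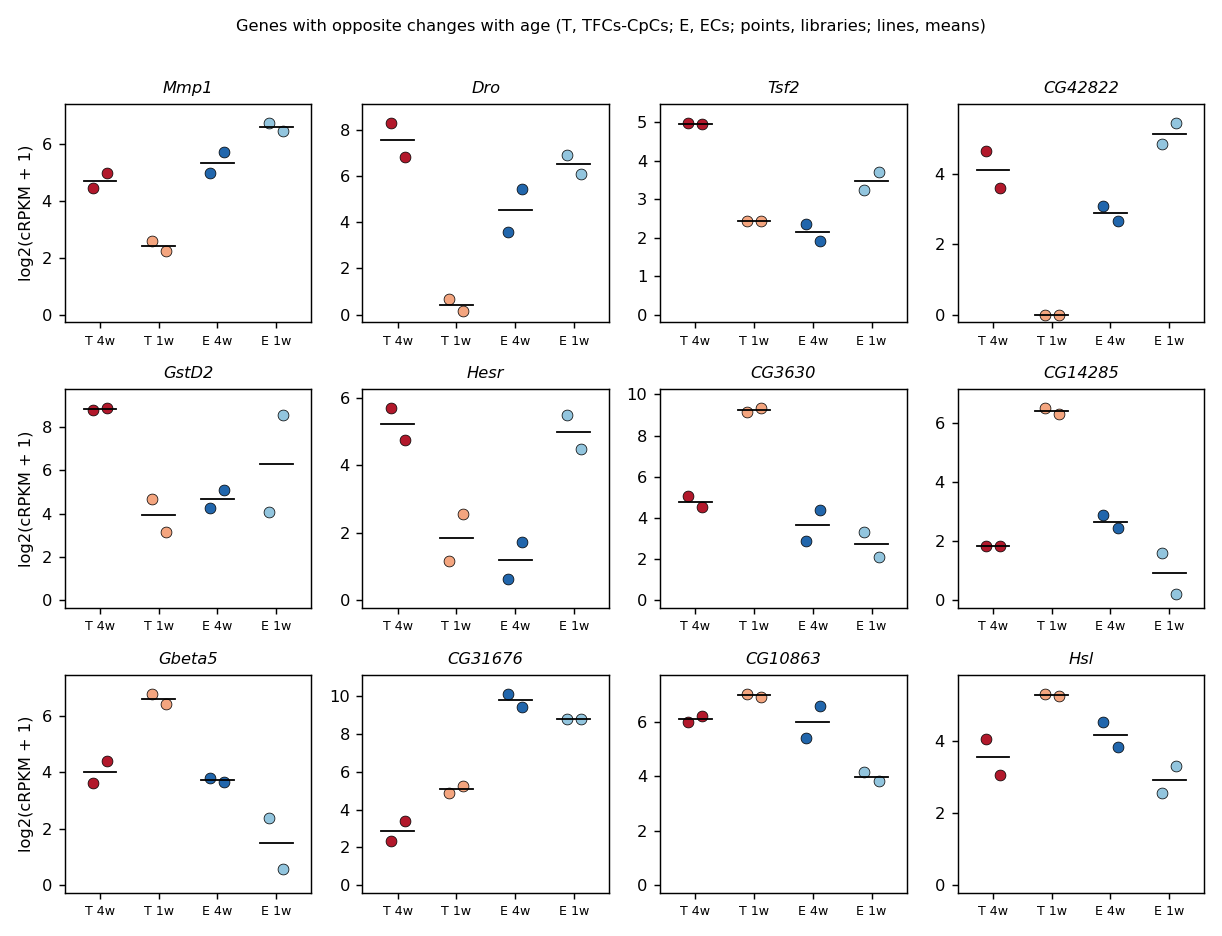
Level of 12 genes with opposite effects of age, as log2(cRPKM + 1) in each library, with 1 point per library, a bar at the group mean and the groups 4w TFCs-CpCs, 1w TFCs-CpCs, 4w ECs and 1w ECs along the x axis. In Mmp1 the 4w TFCs-CpCs (20.7 and 30.2 cRPKM) lie above the 1w TFCs-CpCs (5.01 and 3.65 cRPKM), while the 4w ECs (30.2 and 51.1 cRPKM) lie below the 1w ECs (105 and 85.5 cRPKM).

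On the TFCs-CpCs side, 71 genes were more positive with age in TFCs-CpCs and had an ECs change under 2-fold. Signalling ligands and receptors were among them. The receptor tyrosine kinase Egfr had 24 and 24.9 cRPKM in 4w TFCs-CpCs, against 2.54 and 4.51 cRPKM in 1w TFCs-CpCs. It had 33.6 and 22.6 cRPKM in 4w ECs, against 32.8 and 34.6 cRPKM in 1w ECs. The 1w TFCs-CpCs were the low group, and the other 3 groups had similar levels. The difference was 2.75 (standard error 0.54, adjusted p = 0.038), called in 5 of the 8 leave-one-out fits. Its inhibitor kek1 had 16.7 and 33.1 cRPKM in 4w TFCs-CpCs, against 4.42 and 5.7 cRPKM in 1w TFCs-CpCs. Its level was 128 and 102 cRPKM in 4w ECs, against 177 and 114 cRPKM in 1w ECs, with a difference of 2.28 (standard error 0.55, adjusted p = 0.0766). The ligand hh had 25.3 and 106 cRPKM in 4w TFCs-CpCs, against 5.35 and 7.65 cRPKM in 1w TFCs-CpCs. It had 89.7 and 83 cRPKM in 4w ECs, against 118 and 91.5 cRPKM in 1w ECs. It rose in TFCs-CpCs, its ECs values differed by less than 2-fold, and replicate 2 of the 4w TFCs-CpCs carried much of the rise. Without that library the difference was 2.03 (adjusted p = 0.0614), against 3.26 with it. The FGF ligand pyramus (pyr) had 35.1 and 42.5 cRPKM in 4w TFCs-CpCs, against 3.94 and 11.4 cRPKM in 1w TFCs-CpCs. Its level was 49.6 and 40.1 cRPKM in 4w ECs, against 69.3 and 52.3 cRPKM in 1w ECs, with a difference of 2.47, called without a block (adjusted p = 0.096) and not with the block in ECs (adjusted p = 0.122). The leucine-rich repeat receptor Tollo (Toll-8) had 3.07 and 6.84 cRPKM in 4w TFCs-CpCs, against 0.23 and 0.41 cRPKM in 1w TFCs-CpCs. It had 22.9 and 34.9 cRPKM in 4w ECs, against 38.6 and 27.6 cRPKM in 1w ECs, and was called in 8 of the 8 with a difference of 3.80 (standard error 0.64, adjusted p = 0.0212). Growth-blocking peptide 1 (Gbp1), a cytokine-like peptide, had 42.9 and 42.7 cRPKM in 4w TFCs-CpCs, against 5.49 and 6.08 cRPKM in 1w TFCs-CpCs. Its level was 356 and 415 cRPKM in 4w ECs, against 533 and 503 cRPKM in 1w ECs, with 2.99 for the difference and a call in 8 of the 8. Tollo and Gbp1 thus stayed lower in TFCs-CpCs than in ECs at both ages.

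The genes shg, crb, kst and snu were also among these 71. E-cadherin (shg), which anchors the germline stem cells to CpCs, had 27.4 and 24.9 cRPKM in 4w TFCs-CpCs, against 4.49 and 6.25 cRPKM in 1w TFCs-CpCs. It had 42.1 and 32.9 cRPKM in 4w ECs, against 43.5 and 37.8 cRPKM in 1w ECs. Both 4w TFCs-CpCs libraries were above both 1w libraries and the ECs of the 2 ages overlapped. The difference was 2.08 (standard error 0.47, adjusted p = 0.0619), and the 95% interval of the ECs log2 fold change was -0.77 to 0.67. The apical determinant crumbs (crb) had 12.1 and 19.2 cRPKM in 4w TFCs-CpCs, against 2.22 and 2.75 cRPKM in 1w TFCs-CpCs. Its level was 12 and 16 cRPKM in 4w ECs, against 24.1 and 20.5 cRPKM in 1w ECs, with a difference of 2.99 (standard error 0.52, adjusted p = 0.0235). The beta-heavy spectrin kst, which lies under the apical membrane, had 9.52 and 22.3 cRPKM in 4w TFCs-CpCs, against 1.96 and 2.67 cRPKM in 1w TFCs-CpCs. It had 6.06 and 8.57 cRPKM in 4w ECs, against 8.36 and 7.27 cRPKM in 1w ECs, with a difference of 2.54 (standard error 0.60, adjusted p = 0.0725) called in 1 of the 8 leave-one-out fits. The ABC transporter snu, needed for the lipid barrier of the cuticle, had 2.23 and 49 cRPKM in 4w TFCs-CpCs, against 0 and 0 cRPKM in 1w TFCs-CpCs. Its level was 0.41 and 0.74 cRPKM in 4w ECs, against 1.75 and 0.58 cRPKM in 1w ECs. It was listed at 0 in both 1w TFCs-CpCs libraries, so that its rise was at least 1224-fold as a mean that rests almost wholly on replicate 2 of the 4w TFCs-CpCs. Without that library its difference was 11.85 (adjusted p = 0.0798), against 15.34 with it, and it was called in 8 of the 8.

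Eip93F, Sod3 and ImpL2 were on the same side. The ecdysone-induced transcription factor Eip93F had 27.4 and 45 cRPKM in 4w TFCs-CpCs, against 3.04 and 4.58 cRPKM in 1w TFCs-CpCs. It had 43.7 and 42.7 cRPKM in 4w ECs, against 79.6 and 33.4 cRPKM in 1w ECs, with a difference of 3.27 (standard error 0.59, adjusted p = 0.028) with the ages of the ECs overlapping. The extracellular superoxide dismutase Sod3 had 358 and 125.1 cRPKM in 4w TFCs-CpCs, against 21.1 and 33 cRPKM in 1w TFCs-CpCs. Its level was 22.6 and 51.2 cRPKM in 4w ECs, against 52.2 and 81.7 cRPKM in 1w ECs, with a difference of 3.76 (standard error 0.83, adjusted p = 0.058). ImpL2, a secreted protein that binds insulin-like peptides, had 256 and 495 cRPKM in 4w TFCs-CpCs, against 83.3 and 54.5 cRPKM in 1w TFCs-CpCs. It had 57.8 and 84.9 cRPKM in 4w ECs, against 106 and 180.0 cRPKM in 1w ECs, with a difference of 3.13 (standard error 0.65, adjusted p = 0.0457). Of its exon bases, 61.9% are shared with another gene, and whether the counting used the strand is not stated, so that its reads are uncertain. Among those of these 71 genes that averaged 10 cRPKM or more in their highest group, the largest estimates after snu were those of CG32816, drd, IRSp53 and CG34417. CG32816 had 72.1 and 1.14 cRPKM in 4w TFCs-CpCs, against 0.15 and 0.24 cRPKM in 1w TFCs-CpCs, and its difference of 7.60 became 2.53 (adjusted p = 0.446) without replicate 1 of the 4w TFCs-CpCs. The gene drop dead (drd) had 26.5 and 174 cRPKM in 4w TFCs-CpCs, against 0.18 and 2.65 cRPKM in 1w TFCs-CpCs. Its level was 3.2 and 4.4 cRPKM in 4w ECs, against 7.76 and 5.53 cRPKM in 1w ECs, with a difference of 6.63 (standard error 1.44, adjusted p = 0.0558). CG34417 had 63.1 and 36 cRPKM in 4w TFCs-CpCs, against 0.54 and 3.09 cRPKM in 1w TFCs-CpCs. It had 41 and 58.8 cRPKM in 4w ECs, against 41.4 and 67.6 cRPKM in 1w ECs, with a difference of 4.65 (standard error 0.94, adjusted p = 0.0434). The membrane-bending protein IRSp53 had 3.72 and 20.5 cRPKM in 4w TFCs-CpCs, against 0.14 and 0.13 cRPKM in 1w TFCs-CpCs, with a difference of 5.73 (adjusted p = 0.0748, and 0.107 with the block in ECs).

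The 118 genes on the TFCs-CpCs side with a more negative difference held 27 of the 30 genes of this class that were called in every leave-one-out fit. Redox enzymes were among them. Peroxiredoxin 2 (Prx2) had 368 and 305 cRPKM in 4w TFCs-CpCs, against 2570.3 and 2023 cRPKM in 1w TFCs-CpCs. Its level was 593 and 629 cRPKM in 4w ECs, against 557 and 578 cRPKM in 1w ECs. It was about the same in all 4 ECs libraries, and the TFCs-CpCs fell below the ECs at 4w. The difference was -3.21 (standard error 0.52, adjusted p = 0.0191), and the 95% interval of the ECs log2 fold change was -0.63 to 0.95. Catalase (Cat), which breaks down hydrogen peroxide, had 241 and 192 cRPKM in 4w TFCs-CpCs, against 1351 and 1194 cRPKM in 1w TFCs-CpCs. It had 80.3 and 104 cRPKM in 4w ECs, against 84.8 and 88.2 cRPKM in 1w ECs, with a difference of -2.97 (standard error 0.52, adjusted p = 0.0237) called in 5 of the 8 leave-one-out fits. The kinase Ask1, which links oxidative stress to JNK signalling, had 13.8 and 18.2 cRPKM in 4w TFCs-CpCs, against 127 and 110.0 cRPKM in 1w TFCs-CpCs. Its level was 13.3 and 9.79 cRPKM in 4w ECs, against 11.7 and 13.4 cRPKM in 1w ECs, with a difference of -3.10 (standard error 0.50, adjusted p = 0.018).

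The genes boi, mav, fz2, wgn, Pde1c and Eip63F-1 were also among these 118. The Hedgehog co-receptor brother of ihog (boi) had 6.67 and 4.72 cRPKM in 4w TFCs-CpCs, against 51.6 and 56.8 cRPKM in 1w TFCs-CpCs. It had 21 and 19.5 cRPKM in 4w ECs, against 17.2 and 22.5 cRPKM in 1w ECs. Both 4w TFCs-CpCs libraries were below every ECs library while both 1w libraries were above them all, and the difference was -3.58 (standard error 0.57, adjusted p = 0.018), called in 8 of the 8. The TGF-beta ligand maverick (mav) had 13.9 and 23.1 cRPKM in 4w TFCs-CpCs, against 107 and 107 cRPKM in 1w TFCs-CpCs. Its level was 39.3 and 30.7 cRPKM in 4w ECs, against 32 and 28.1 cRPKM in 1w ECs, with a difference of -3.09 (standard error 0.51, adjusted p = 0.0191) called in 8 of the 8. The Wnt receptor fz2 had 32.5 and 34 cRPKM in 4w TFCs-CpCs, against 97.5 and 108 cRPKM in 1w TFCs-CpCs. It had 69.6 and 59.8 cRPKM in 4w ECs, against 49.6 and 49.2 cRPKM in 1w ECs, with a difference of -2.34 (standard error 0.44, adjusted p = 0.0339). The TNF receptor wengen (wgn) had 82.1 and 138 cRPKM in 4w TFCs-CpCs, against 773 and 799 cRPKM in 1w TFCs-CpCs. Its level was 48.8 and 42.2 cRPKM in 4w ECs, against 40.9 and 63.2 cRPKM in 1w ECs, with a difference of -2.96 (standard error 0.57, adjusted p = 0.0344). The cyclic-nucleotide phosphodiesterase Pde1c had 0.22 and 0.1 cRPKM in 4w TFCs-CpCs, against 83.7 and 63.2 cRPKM in 1w TFCs-CpCs. It had 0.32 and 0.95 cRPKM in 4w ECs, against 1.74 and 0.56 cRPKM in 1w ECs, so that it was nearly lost from TFCs-CpCs and low in every ECs library, with a difference of -8.34 (standard error 0.96, adjusted p = 0.00686). Eip63F-1, a calcium-binding EF-hand protein, had 2.83 and 2.47 cRPKM in 4w TFCs-CpCs, against 117 and 139 cRPKM in 1w TFCs-CpCs. Its level was 1.28 and 2.06 cRPKM in 4w ECs, against 0.91 and 1.22 cRPKM in 1w ECs, with a difference of -6.53 (standard error 0.69, adjusted p = 0.00606).

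Kal1, JhI-21, NetB, AQP and AstA-R2 were further genes with a more negative difference. Kal1, an extracellular matrix protein related to human anosmin, had 61.6 and 28.7 cRPKM in 4w TFCs-CpCs, against 1655 and 1167 cRPKM in 1w TFCs-CpCs. It had 35 and 61.9 cRPKM in 4w ECs, against 41.4 and 55 cRPKM in 1w ECs. At 4w it fell to the level of the ECs, and the difference was -5.27 (standard error 0.72, adjusted p = 0.00983), called in 8 of the 8. The amino-acid transporter JhI-21 had 60.8 and 89.3 cRPKM in 4w TFCs-CpCs, against 1015 and 625 cRPKM in 1w TFCs-CpCs. It had 44.5 and 77.7 cRPKM in 4w ECs, against 36.3 and 44.1 cRPKM in 1w ECs, with a difference of -4.39 (standard error 0.62, adjusted p = 0.00983), with 12.5% of its exon bases shared. The guidance ligand Netrin-B (NetB) had 8.32 and 12.3 cRPKM in 4w TFCs-CpCs, against 191 and 172 cRPKM in 1w TFCs-CpCs. Its level was 3.07 and 1.19 cRPKM in 4w ECs, against 3.57 and 2.02 cRPKM in 1w ECs, with a difference of -4.12 (standard error 0.67, adjusted p = 0.0191). The water channel gene AQP had 0.02 and 0 cRPKM in 4w TFCs-CpCs, against 57.5 and 46.7 cRPKM in 1w TFCs-CpCs. It fell at least 1057-fold in TFCs-CpCs, its ECs level was low and uneven (3.82 and 0.05 cRPKM in 4w ECs, against 1.95 and 0.93 cRPKM in 1w ECs), and without replicate 1 of the 4w ECs the difference was -7.61 (adjusted p = 0.261), against -12.76 with it. The allatostatin receptor AstA-R2 had 0.28 and 0 cRPKM in 4w TFCs-CpCs, against 31.9 and 24.4 cRPKM in 1w TFCs-CpCs. It had 3.2 and 0.48 cRPKM in 4w ECs, against 1.04 and 1.32 cRPKM in 1w ECs. Its difference of -8.51 (standard error 1.82, adjusted p = 0.0543) became -14.69 (adjusted p = 0.0117) without replicate 1 of the 4w TFCs-CpCs.

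The enzymes of octopamine synthesis moved in opposite directions within TFCs-CpCs. The tyrosine decarboxylases Tdc1 and Tdc2 make tyramine, and tyramine beta-hydroxylase (Tbh) turns it into octopamine, the amine that acts on ovarian muscle and ovulation. Tdc1 had 18.3 and 5.87 cRPKM in 4w TFCs-CpCs, against 719 and 788 cRPKM in 1w TFCs-CpCs. Its level was 0.63 and 1.49 cRPKM in 4w ECs, against 1.85 and 0.12 cRPKM in 1w ECs, with a difference of -6.46 (standard error 1.23, adjusted p = 0.034). Tdc2 had 6.85 and 1.62 cRPKM in 4w TFCs-CpCs, against 69.6 and 44.9 cRPKM in 1w TFCs-CpCs. It had 1.13 and 2.92 cRPKM in 4w ECs, against 2.06 and 1.21 cRPKM in 1w ECs, with a difference of -4.40 (standard error 1.01, adjusted p = 0.0652). Tbh had 1.83 and 5.86 cRPKM in 4w TFCs-CpCs, against 0.01 and 0.01 cRPKM in 1w TFCs-CpCs. Its level was 2.97 and 1.16 cRPKM in 4w ECs, against 3 and 0.73 cRPKM in 1w ECs, with a difference of 8.65 (standard error 1.89, adjusted p = 0.0573) called in 1 of the 8 leave-one-out fits. Both decarboxylases therefore fell in TFCs-CpCs while Tbh rose at least 188-fold, and in ECs all 3 had levels of under 4 cRPKM that overlapped between the ages.

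**Figure D3:**
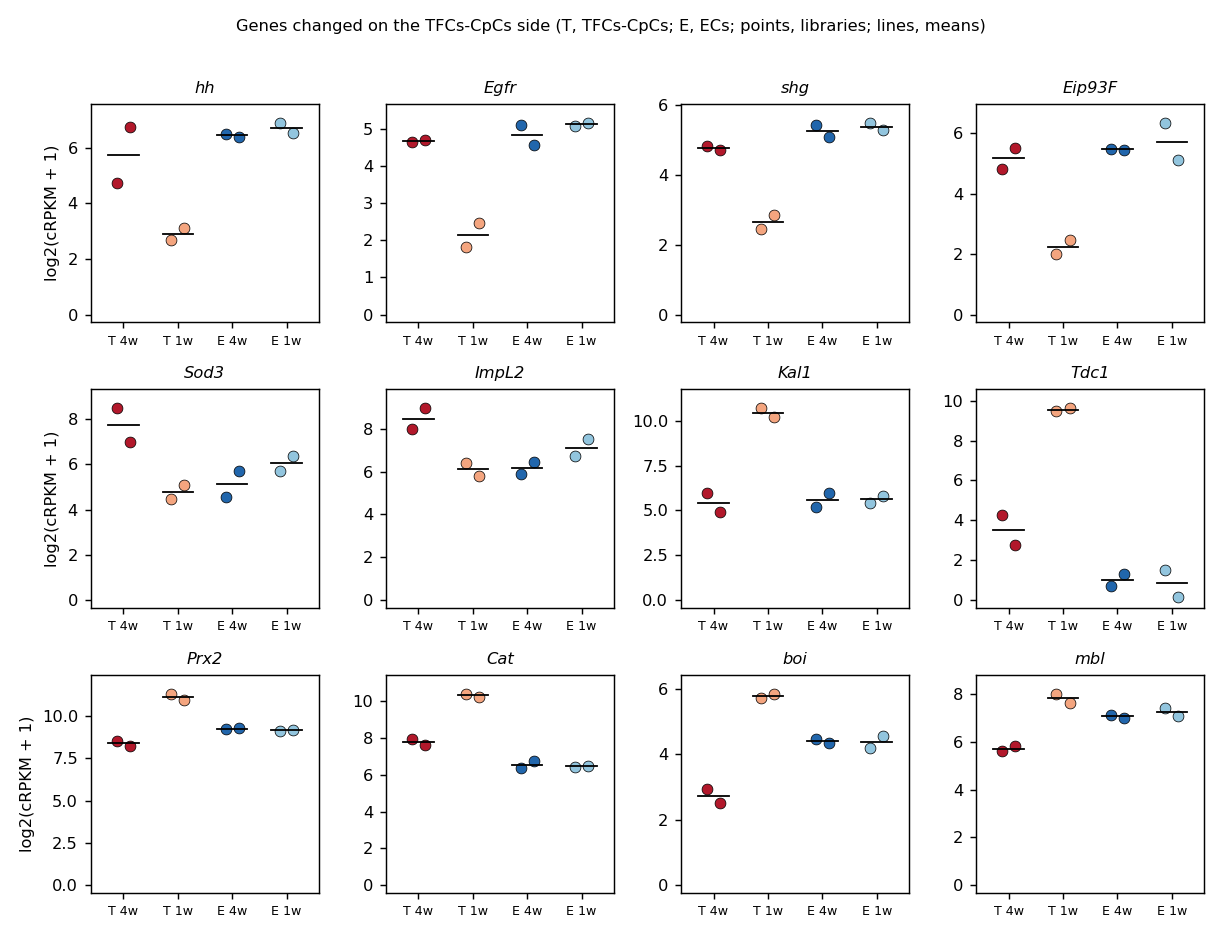
Level of 12 genes with an effect of age on the TFCs-CpCs side, as log2(cRPKM + 1) in each library, with 1 point per library, a bar at the group mean and the groups 4w TFCs-CpCs, 1w TFCs-CpCs, 4w ECs and 1w ECs along the x axis. In Egfr the 1w TFCs-CpCs (2.54 and 4.51 cRPKM) stand below the other groups, and in Prx2 the 1w TFCs-CpCs (2570 and 2023 cRPKM) stand above them.

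Only 4 genes were on the ECs side, and none kept the call in all leave-one-out fits, which placed 0 (without replicate 2 of the 1w TFCs-CpCs) to 5 genes in this class. The microtubule-associated gene tau had 14.8 and 79.6 cRPKM in 4w TFCs-CpCs, against 49.1 and 32.2 cRPKM in 1w TFCs-CpCs. It had 0.69 and 0.43 cRPKM in 4w ECs, against 7.58 and 12.8 cRPKM in 1w ECs. Its ECs values did not overlap and its TFCs-CpCs values did. The difference was 4.05 (adjusted p = 0.0831, and 0.116 with the block in ECs), and 2.52 (adjusted p = 0.168) without replicate 2 of the 4w TFCs-CpCs. TFCs-CpCs carried a tau::GFP transgene, and its part in the tau reads was not tested. CG11378 had 76.6 and 88.8 cRPKM in 4w TFCs-CpCs, against 68.5 and 30.4 cRPKM in 1w TFCs-CpCs. Its level was 8.66 and 10.2 cRPKM in 4w ECs, against 59.8 and 36 cRPKM in 1w ECs, with a difference of 2.70 (adjusted p = 0.09, and 0.124 with the block). The centromere protein Cenp-C had 5.21 and 8.12 cRPKM in 4w TFCs-CpCs, against 7.95 and 14 cRPKM in 1w TFCs-CpCs. It had 10.6 and 7.46 cRPKM in 4w ECs, against 2.14 and 1.74 cRPKM in 1w ECs, with a difference of -3.27 (standard error 0.69, adjusted p = 0.0487). The oxysterol-binding protein Osbp, which carries sterols between membranes, had 43.7 and 52.5 cRPKM in 4w TFCs-CpCs, against 74.3 and 76.7 cRPKM in 1w TFCs-CpCs. Its level was 16.1 and 8.19 cRPKM in 4w ECs, against 5.98 and 3.93 cRPKM in 1w ECs, with a difference of -2.30 (standard error 0.56, adjusted p = 0.0809). For Cenp-C and Osbp the ages of the ECs did not overlap, with the higher values at 4w, but the effect in ECs alone was called for none of the 4 genes by edgeR, all of which had an unadjusted p under 0.05 there, and for 3 by DESeq2.

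Of the 15 called genes measured in 1 cell group, 14 were TFCs-CpCs genes, and for these a change in ECs could not be compared. CG42750 had 0.01 and 0.01 cRPKM in 4w TFCs-CpCs, against 12.1 and 9.15 cRPKM in 1w TFCs-CpCs, CG6867 had 0.12 and 0.02 cRPKM in 4w TFCs-CpCs, against 23.5 and 37 cRPKM in 1w TFCs-CpCs, and both were called in all of the 8 leave-one-out fits, with ECs levels of at most 1.22 cRPKM. CG11044 had 0 and 0.01 cRPKM in 4w TFCs-CpCs, against 9.05 and 17.2 cRPKM in 1w TFCs-CpCs, a fall of at least 455-fold, but its difference was -9.60 (adjusted p = 0.0768, and 0.212 with the block in ECs) and -3.33 (adjusted p = 1) without replicate 1 of the 4w ECs. Of the rising genes, the gene given only as FBgn0004009 had 6.66 and 29.1 cRPKM in 4w TFCs-CpCs, against 0.48 and 0.66 cRPKM in 1w TFCs-CpCs, with a difference of 6.0 (standard error 1.51, adjusted p = 0.09). CG44251 had 18.3 and 4.21 cRPKM in 4w TFCs-CpCs, against 0 and 0 cRPKM in 1w TFCs-CpCs, a rise of at least 265-fold, with a difference of 13.76 (adjusted p = 0.0885, and 0.177 with the block). The transporter Mdr65, a pump of the blood-brain barrier, was the gene measured in ECs only. It had 0.58 and 1.02 cRPKM in 4w TFCs-CpCs, against 0.01 and 0 cRPKM in 1w TFCs-CpCs, and 0.09 and 0.03 cRPKM in 4w ECs, against 2.92 and 0.26 cRPKM in 1w ECs. Of its fitted difference of 11.37 (adjusted p = 0.0919, and 0.145 with the block), 6.80 came from TFCs-CpCs, where the 1w group was at the floor of 3 counts and the rise was at least 43-fold.

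In all of the 25 genes of the same direction, the fitted values were lower with age in both cell groups and the more so in TFCs-CpCs, and muscle genes were prominent among them. Mlp84B, a muscle LIM protein of the sarcomere, had 14.8 and 14 cRPKM in 4w TFCs-CpCs, against 791 and 758 cRPKM in 1w TFCs-CpCs. It had 3.57 and 7.06 cRPKM in 4w ECs, against 13.9 and 12.8 cRPKM in 1w ECs, with a difference of -4.74 (standard error 0.56, adjusted p = 0.00733) called in 8 of the 8 leave-one-out fits. Myofilin (Mf), a thick filament protein, had 189.9 and 118 cRPKM in 4w TFCs-CpCs, against 5805 and 5061 cRPKM in 1w TFCs-CpCs. Its level was 30.8 and 42.9 cRPKM in 4w ECs, against 378 and 156 cRPKM in 1w ECs. It and CG5597 were the 2 called genes with a called effect in ECs too, and the difference of Mf was -2.65 (adjusted p = 0.0847, and 0.119 with the block in ECs). CG5612 had 119 and 76.8 cRPKM in 4w TFCs-CpCs, against 6182 and 4275 cRPKM in 1w TFCs-CpCs. It had 3.42 and 4.3 cRPKM in 4w ECs, against 12.5 and 9.99 cRPKM in 1w ECs. The channel Ih, which carries a pacemaker current, had 4.09 and 2.26 cRPKM in 4w TFCs-CpCs, against 225 and 189 cRPKM in 1w TFCs-CpCs. Its level was 1.19 and 0.84 cRPKM in 4w ECs, against 5.09 and 2.44 cRPKM in 1w ECs. The small heat shock protein l(2)efl, abundant in muscle, had 31.9 and 25.9 cRPKM in 4w TFCs-CpCs, against 961 and 900.4 cRPKM in 1w TFCs-CpCs. It had 13.7 and 18.6 cRPKM in 4w ECs, against 75.7 and 23 cRPKM in 1w ECs. CG5612, Ih and l(2)efl were also called in all of the 8 leave-one-out fits. Over the muscle list, 10 of the 25 genes tested were called, all more negative, against 2.47% of all genes. The list was chosen with earlier results of these data known, so that this share is a description and no test. The list's median difference was -2.16, with median log2 fold changes of -5.03 in TFCs-CpCs and -2.0 in ECs (genes at the floor set to their bound). Without replicate 1 of the 1w ECs the median difference was -3.36. By itself the effect of age was called, lower at 4w, for 20 of the 25 in TFCs-CpCs and for 5 in ECs. Act87E had 21.9 and 17.4 cRPKM in 4w TFCs-CpCs, against 1324 and 1781 cRPKM in 1w TFCs-CpCs. Its level was 0.85 and 8.99 cRPKM in 4w ECs, against 7.79 and 3.28 cRPKM in 1w ECs, with a difference of -6.48 (standard error 1.11, adjusted p = 0.0228) that was -3.96 (adjusted p = 0.0656) without replicate 2 of the 4w ECs, and its reads may be shared with the other, nearly identical actins. Actn, the Z-disc crosslinker alpha-actinin, which is also present outside muscle, had 67 and 62.9 cRPKM in 4w TFCs-CpCs, against 390.0 and 489 cRPKM in 1w TFCs-CpCs. It had 60.3 and 32.5 cRPKM in 4w ECs, against 29.9 and 30.8 cRPKM in 1w ECs, with a difference of -3.69 (standard error 0.55, adjusted p = 0.0133) and 20.7% of its exon bases shared. The muscle transcription factor Mef2 had 7.12 and 5.04 cRPKM in 4w TFCs-CpCs, against 84.3 and 96.2 cRPKM in 1w TFCs-CpCs. Its level was 1.6 and 2.75 cRPKM in 4w ECs, against 4.83 and 1.98 cRPKM in 1w ECs, with a difference of -3.60 (standard error 0.64, adjusted p = 0.0264). Taking the listed marker genes of muscle and the other non-niche cell types out of the called genes left 268. This removes the listed genes only, and other genes of those cells stay in the count.

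Other lists of genes of known function were also chosen with earlier results of these data known. They were read against the background of 2.47%, without a test of a list. Of 43 channels and transporters tested, 7 were called, all more negative (16.3%): AQP, the ammonium channel Rh50, Ih, the gap junction gene shakB, the calcium channel Ca-alpha1D, the water channel Prip and the calcium pump SERCA. Rh50, Ih, Ca-alpha1D and Prip were lower with age in both cell groups. Prip had 6.74 and 9.27 cRPKM in 4w ECs, against 99.1 and 50.9 cRPKM in 1w ECs. The gene shakB was measured in TFCs-CpCs only, and AQP and SERCA were on the TFCs-CpCs side. SERCA, which refills the endoplasmic reticulum with calcium, had 104 and 114.6 cRPKM in 4w TFCs-CpCs, against 404 and 408 cRPKM in 1w TFCs-CpCs. It had 41.1 and 48.2 cRPKM in 4w ECs, against 38.5 and 48.6 cRPKM in 1w ECs, with 16% of its exon bases shared. Ih and SERCA are also active in muscle, whose marker sum was likewise lower at 4w in TFCs-CpCs. In ECs the muscle sum was lower at 4w too, while SERCA overlapped between the ages. The part of muscle cells in these values was not tested. Of 68 neural adhesion and guidance genes, Nlg1, NetB and Nrx-1 were called, all more negative. The neuroligin Nlg1, a synaptic adhesion protein, had 1.98 and 0.11 cRPKM in 4w TFCs-CpCs, against 44.1 and 48.4 cRPKM in 1w TFCs-CpCs. Its level was 2.62 and 3.2 cRPKM in 4w ECs, against 4.64 and 2.02 cRPKM in 1w ECs, and its difference of -5.60 (standard error 1.29, adjusted p = 0.0659) was -8.88 (adjusted p = 0.00137) without replicate 1 of the 4w TFCs-CpCs. Of 35 RNA-binding splicing regulators, mbl, bru3 and Rbp9 were called, all more negative. Muscleblind (mbl), which regulates alternative exons, had 47.6 and 55.3 cRPKM in 4w TFCs-CpCs, against 259 and 197 cRPKM in 1w TFCs-CpCs. It had 139.7 and 128 cRPKM in 4w ECs, against 170.4 and 136 cRPKM in 1w ECs. It was higher in TFCs-CpCs than in ECs at 1w and lower at 4w, with a difference of -2.30 (standard error 0.48, adjusted p = 0.0457) called in 3 of the 8 leave-one-out fits.

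Signalling pathways had few calls and these often had opposite signs within a list. Of 14 antioxidant genes, Sod3 was called more positive and Prx2 and Cat more negative. Of 19 EGFR pathway genes, Egfr and kek1 were more positive, and the GTPase Ras85D was more negative without the block (adjusted p = 0.0854) and not called with the block in ECs (adjusted p = 0.129). Of 13 Hedgehog genes, the ligand hh was more positive and the co-receptor boi more negative. Of 24 Wnt genes, the secreted deacylase Notum was more positive (adjusted p = 0.0957, and 0.11 with the block in ECs) and the receptor fz2 more negative. Of 20 BMP genes only mav was called. Of 20 Notch genes the inhibitor numb was called, more positive, with 56.8 and 116 cRPKM in 4w TFCs-CpCs, against 11.2 and 15.9 cRPKM in 1w TFCs-CpCs. Its level was 7.69 and 17.6 cRPKM in 4w ECs, against 13.9 and 20 cRPKM in 1w ECs, and 15 of the 20 had a positive difference with a median of 1.14, against 0.13 for all genes tested. One gene each was called in the lists for insulin and TOR (ImpL2, of 20 tested), ecdysone (Eip93F, of 18), TNF and JNK (wgn, of 15), Toll and Imd (cact, more negative, of 27) and Hippo signalling (ex, of 14, with an adjusted p of 0.09, and 0.115 with the block in ECs).

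Junction, matrix and detoxification lists had few calls each, and none was read as apart from the 2.47% of all genes tested. The septate junction, adherens junction, integrin and cytochrome P450 lists had calls on both sides, and the remaining lists of functions given here on 1 side. The calls of the junction and integrin lists were Tsf2 and nrv2 of 23 septate junction genes, shg and ed of 19 adherens junction genes, and Itgbn and Pax of 17 integrin and focal adhesion genes. In each case the first gene was more positive and the second more negative. The calls of nrv2 and Itgbn were lost with the block in ECs (adjusted p = 0.115 and 0.117). Mmp1 was the call among 16 basement membrane genes, tau and kst among 36 cytoskeletal genes, Dro among 15 antimicrobial peptides and GstD2 among 33 glutathione S-transferases, all more positive. Of 75 cytochrome P450 genes Cyp4g15 was more positive and Cyp4ac3 more negative, and of 23 vacuolar ATPase genes Vha68-1 was more negative. Among the marker lists, 4 of 21 late follicle genes (Cp15, Vm32E, Vm26Ac and psd) were called more positive, and 20 of the 21 had a positive difference. Their median of 3.14 fell to 1.51, with 2 calls, without replicate 1 of the 4w TFCs-CpCs. Vm26Ac was not called with the block in ECs (adjusted p = 0.109). Of 8 TFCs-CpCs markers hh was called, of 7 ECs markers fax and of 10 germline genes grk, these last 2 more negative, and none of the hemocyte (6 tested), fat body (5) or neuron (9) genes was called by edgeR or DESeq2, with 2 fat body genes and no other of these at an unadjusted p under 0.05.

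No gene was called by edgeR in 11 of the lists of functions, of which 9 are of general cell functions: cytosolic ribosomal proteins (82 tested), mitochondrial ribosomal proteins (71), the respiratory chain (76), proteasome (32), glycolysis (12), heat shock proteins and chaperones (18), core spliceosome (34), cell cycle and replication (34), and lysosome and autophagy (30). The JAK-STAT pathway (12 tested) and the nuclear lamina (11) had none either. Of their 412 members together, 16 had an unadjusted p under 0.05 and 8 were called by DESeq2. A gene without a call was not shown to age alike in the 2 cell groups. Of the 82 cytosolic ribosomal genes 74 had a positive difference, with a median of 0.54, but the median was -0.39 without replicate 1 of the 4w TFCs-CpCs. Of the 18 heat shock genes 16 had a positive difference, with a median of 0.79, and 4 of them rose in TFCs-CpCs by themselves. Hsc70-2, with a negative difference, fell there (log2 fold change -3.97, adjusted p = 0.00612 by edgeR). It had 8.17 and 9.99 cRPKM in 4w TFCs-CpCs, against 108 and 130 cRPKM in 1w TFCs-CpCs. The small heat shock protein l(2)efl, called more negative, is not a member of that list.

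**Figure D4:**
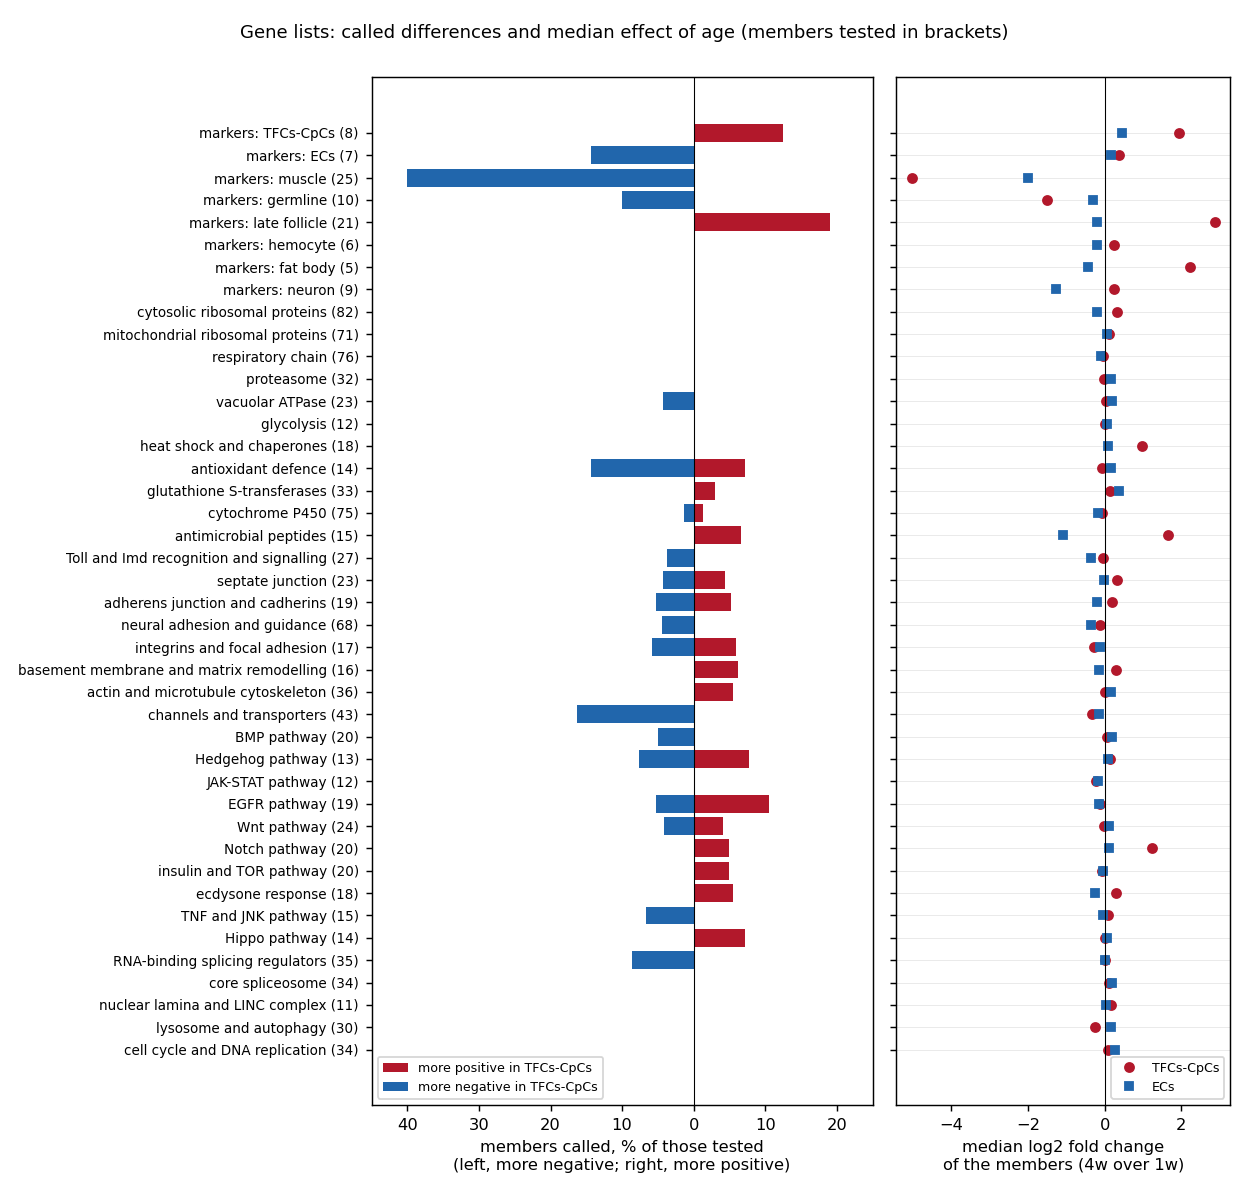
Gene lists in the comparison of the 2 effects of age: the percentage of tested members called (left), and the median log2 fold change (4w over 1w) of the members in TFCs-CpCs and in ECs, with genes at the floor set to their bound (right). The muscle list has 10 of its 25 tested genes called, against 2.47% of all genes tested. The lists were chosen with earlier results of these data known, so that the percentages are a description.

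The levels of the called genes were compared between the cell groups at each age as a description, since the gap is made of the values that give the difference. Of the 163 genes with a more negative difference that were measured in both cell groups, 76 were higher in TFCs-CpCs than in ECs at 4w and 155 at 1w. The median gap, TFCs-CpCs minus ECs on the log2(cRPKM + 1) scale, was -0.12 at 4w and 3.15 at 1w. Of the 105 genes with a more positive difference, 80 were higher in TFCs-CpCs at 4w and 12 at 1w, with median gaps of 1.31 at 4w and -2.23 at 1w. Over all 8193 genes measured in both cell groups, 4110 were higher in TFCs-CpCs at 4w and 3300 at 1w. The gap was smaller in size at 4w for 142 of the 163 genes, for 59 of the 105 and for 4866 of the 8193. The genes with a more negative difference were thus mostly ones that 1w TFCs-CpCs had above ECs, and at 4w the 2 cell groups had similar median levels of them.

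Several genes that the study follows for their expression were not called by the difference. The adhesion molecule Fas2 had 234 and 645 cRPKM in 4w TFCs-CpCs, against 98.3 and 128 cRPKM in 1w TFCs-CpCs. It had 308 and 234 cRPKM in 4w ECs, against 184 and 193 cRPKM in 1w ECs, with a difference of 1.09 (standard error 0.64, adjusted p = 0.496). The splicing factor Smu1 had 15.4 and 12.6 cRPKM in 4w TFCs-CpCs, against 4.83 and 10.5 cRPKM in 1w TFCs-CpCs. Its level was 22.6 and 19.6 cRPKM in 4w ECs, against 14.4 and 7.85 cRPKM in 1w ECs, with a difference of -0.38 (standard error 0.82, adjusted p = 0.905), so that neither gene's change with age was shown to differ between the cell groups. The nuclear-anchoring protein Msp300 had a difference of -1.49 (standard error 0.61, adjusted p = 0.31), the chloride channel gene Clic of 1.20 (standard error 0.50, adjusted p = 0.324), the aminopeptidase Psa of -1.50 (standard error 0.48, adjusted p = 0.192), CG44085 of -2.65 (standard error 0.87, adjusted p = 0.199) and the glutathione S-transferase GstS1 of -2.06 (standard error 0.56, adjusted p = 0.12). Of these, GstS1 was called by DESeq2 (adjusted p = 0.00417), with 12 libraries in the fit (adjusted p = 0.0239), without a filter (adjusted p = 0.076) and without replicate 1 of the 4w TFCs-CpCs (adjusted p = 0.0268). CG44085 was called by DESeq2 (adjusted p = 0.0341), without a filter (adjusted p = 0.05) and without replicate 1 of the 1w ECs (adjusted p = 0.0749), Psa with 12 libraries (adjusted p = 0.0409) and Msp300 without replicate 2 of the 4w TFCs-CpCs (adjusted p = 0.0541). The channel Pkd2 had 1.15 and 0.02 cRPKM in 4w TFCs-CpCs, against 0.01 and 0 cRPKM in 1w TFCs-CpCs. It had 0.58 and 0.2 cRPKM in 4w ECs, against 0.54 and 0.02 cRPKM in 1w ECs, so that it was low throughout, and its difference of 6.14 (standard error 3.56, adjusted p = 0.492) was 1.01 (adjusted p = 0.95) without replicate 1 of the 4w TFCs-CpCs. The lack of a call does not show that the cell groups age alike for these genes.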

How the data were processed

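The 8 ageing libraries of 12 were used, and groups were taken from the sample records. Reads were processed by the authors with vast-tools 2.5.1 on dm6, which yields a pair of values for each gene in each library. The deposited counts are whole numbers of reads, without normalization, and were used for every test. The deposited corrected RPKM values (cRPKM) scale the reads by mappable transcript length and library depth, and were used for levels. Whether the strand was used in counting is not stated in the sources used here. RNA was amplified by PCR before sequencing, so that counting limits cover counting error only. The libraries are named biological replicates, and p-values measure the spread between these samples. Of 14489 genes listed, 763 had no value and 13726 had values, and 13506 of these matched the name table and the BDGP6 annotation (the build dm6), which gave coordinates and exon bases shared between genes.

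Genes that reached 10 counts in 2 or more of the 8 libraries were tested with edgeR 4.0.16 in R 4.3.3 (TMM, estimated dispersions, quasi-likelihood test) on 4 group means. The difference was the contrast 4w minus 1w in TFCs-CpCs less 4w minus 1w in ECs. Calls required an absolute log2 value of at least 1 and an adjusted p (Benjamini-Hochberg) under 0.1. The standard error is the absolute log2 value divided by the square root of F. A group with at most 3 counts in every library was at the floor, and its fold change is given as a bound from mean normalised counts. Tables and figures were made with matplotlib 3.10.9, pandas 2.3.3 and numpy 2.4.6 under Python 3.11.15, and the fit was tested on simulated data.

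The alternatives were DESeq2 1.42.0 (the tool of the study's expression analysis was DESeq), median-of-ratios size factors in edgeR, no filter, a filter at a mean of 5 cRPKM, a stricter adjusted p (0.05), one fit of the 12 libraries, each cell group on its own 4 libraries, limma 3.58.1 on log2(cRPKM + 1) and on log2(cRPKM + 0.1), the replicate block, and leaving out each of the 8 libraries. Leaving out the marker genes of other cell types was added after values had been seen. For each replicate, the study took the females of both ages from a common batch. For ECs the numbers agree in all sources and so pair the ages, and in TFCs-CpCs the sources number the libraries differently, so that their pairs are unknown. The correlation of same-numbered deviations from the group means was -0.032 in ECs and -0.027 in TFCs-CpCs, and the main test had no block.

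The members of the comparison and the 42 gene lists (34 of functions, 8 of marker genes) were chosen with earlier results of these data known. Named genes are called genes averaging 10 cRPKM or more in their highest group (the 5 largest differences of each sign per class, the 3 largest for genes measured in 1 cell group), up to 4 members of each list, and the genes the study names for their expression. Tdc1, Tdc2, Tbh, Hesr, Kah, mthl9, Hsl, Vps8, CG42821, CG31121, CG31676, CG10863, pyr, crb, Tollo, Gbp1, Kal1, JhI-21, Ask1, Mef2, Mf, Mdr65, CG5597, CG5612, l(2)efl, Prip, Ca-alpha1D and SERCA were chosen after their values were seen. A withheld item is not reported here.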

Additional observations from a re-analysis of the deposited data

Results flagged for a closer look

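The comparison is itself a test of effects that differ between 2 groups of cells, and 283 genes had effects of age that differed between TFCs-CpCs and ECs by the interaction term (edgeR, adjusted p under 0.1). Among the genes named for their class, the more positive log2 differences were 15.36 for CG6508, 13.54 for CG42822, 13.34 for CG15721, 11.42 for shd and 10.82 for Cp15 in the opposite class. They were 15.34 for snu, 7.60 for CG32816, 6.63 for drd, 5.73 for IRSp53 and 4.65 for CG34417 on the TFCs-CpCs side. They were 4.05 for tau and 2.70 for CG11378 on the ECs side, and 13.76 for CG44251 and 6.0 for FBgn0004009 among genes measured in TFCs-CpCs only.

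The more negative log2 differences were -8.06 for CG8888, -7.77 for CG14285, -6.12 for CG14196, -5.91 for CG3630 and -5.44 for Gbeta5 in the opposite class. They were -12.76 for AQP, -8.51 for AstA-R2, -8.34 for Pde1c, -6.53 for Eip63F-1 and -6.48 for Act87E on the TFCs-CpCs side, -3.27 for Cenp-C and -2.30 for Osbp on the ECs side, and -9.60 for CG11044, -9.54 for CG6867 and -8.18 for CG42750 among genes measured in TFCs-CpCs only. Of the genes that the study follows, mbl (-2.30), Nlg1 (-5.60), Actn (-3.69) and Mmp1 (3.44) differed between the cell groups.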

How the results depend on the processing

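All 283 genes kept the sign of their difference in every alternative that tested them. The filter at a mean of 5 cRPKM left out some of them, such as Tbh, Itgbn and Mdr65. All 283 were called by DESeq2, and 45 were called in all of the 8 fits that left out 1 library. The number of genes called by the difference was 908 by DESeq2 (489 more positive and 419 more negative, against 110 and 173), 566 without a filter, 950 with 12 libraries, 119 with limma on log2(cRPKM + 0.1) and 130 at an adjusted p under 0.05. In the same order, the opposite genes numbered 189, 106, 159, 22 and 26, against 50. Those on the TFCs-CpCs side numbered 476, 347, 521, 88 and 88, against 189. Those on the ECs side numbered 21, 11, 37, 2 and 1, against 4, and 2 with a mean of at least 5 cRPKM or with limma on log2(cRPKM + 1). The effect of age in TFCs-CpCs was called for 1652 genes by DESeq2, 1671 with 12 libraries, 479 on its own 4 libraries and 582 at the stricter p, against 924. That in ECs was called for 107 by DESeq2, 63 without a filter, 13 at 5 cRPKM, 40 with 12 libraries, 11 on its own 4 libraries and 12 with limma on log2(cRPKM + 1), against 21.

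Leaving out 1 library gave 69 (without replicate 2 of the 1w ECs) to 489 (without replicate 1 of the 4w TFCs-CpCs) called genes, with 20 to 61 opposite, 37 to 338 on the TFCs-CpCs side and 0 to 5 on the ECs side. It gave 438 to 965 genes for the effect in TFCs-CpCs and 0 to 30 for that in ECs. The cause was not tested. The difference of Smu1 ranged from -0.78 to 0.20 when 1 library was left out, and the value of 0.20 (adjusted p = 0.98), without replicate 2 of the 1w TFCs-CpCs, had the opposite sign to that with all libraries. With the pairs of the ECs as a block, 245 genes were called, 226 of them among the 283, and with the replicate number as a block in both cell groups 279 were called, 223 of them among the 283. Each group had 2 libraries, and an ECs library had at most 16888122 reads. Fewer cells were sorted for TFCs-CpCs than for ECs. Small differences and low genes of either cell group are thus measured least firmly.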
